A study of Mus musculus with 6 samples.

Results

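Cytochrome c oxidase, complex IV of the mitochondrial respiratory chain, was examined through 10 of its nuclear genes in bulk RNA-Seq of mouse embryonic lateral cortex. The list was set by name and holds 8 constitutive subunits (Cox4i1, Cox5a, Cox5b, Cox6a1, Cox6c, Cox7a2, Cox7b and Ndufa4) and 2 isoforms linked to hypoxia (Cox4i2 and Ndufa4l2). Of the 10 genes, 9 were measured among 17068 genes in the deposited count table. Cox4i1, the constitutive partner of Cox4i2, was not analysed here. Each of the 6 libraries came from the lateral cortex of a female c57/bl6 embryo at E12.5. Of the 4 controls, which carried no Cre, 3 were Foxp1 fl/+ and control 3 was Foxp1 fl/fl, and the other 2 libraries were labelled Foxp1 fl/fl;Emx1Cre (Foxp1cKO). All 6 embryos thus carried a floxed Foxp1 allele, and Emx1Cre acts in the dorsal telencephalon and its progeny, so that vessel, blood and mural cells of the tissue are outside the lineage it targets. The question was how the constitutive and the hypoxia-linked complex IV genes differed between the groups.

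Complex IV passes electrons from cytochrome c to oxygen and pumps protons across the inner mitochondrial membrane. Its catalytic core is encoded by mitochondrial DNA, and a ring of small nuclear-encoded subunits stabilizes and tunes it. Some of these subunits have alternative isoforms, which differ between tissues or with oxygen supply. Cox4i2 can replace Cox4i1 when oxygen is low. Ndufa4l2, a relative of Ndufa4, is a target of the hypoxia-inducible factor HIF-1 and is known for lowering oxygen use. Both isoforms are also known from pericytes, the mural cells that wrap capillaries.

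Library depth was 50076008 to 78346979 counts, with Foxp1cKO replicate 1 the shallowest, and a floor of 3 counts was 0.0383 to 0.0599 CPM (counts scaled to library size). Foxp1, the targeted gene, stood at 59.7, 60.8, 71.2 and 79.1 CPM in controls 1 to 4 and at 83.2 and 76.8 CPM in the libraries labelled Foxp1cKO (log2 fold change 0.24, SE 0.129, adjusted p = 0.468, edgeR). The targeted gene was thus not lower in those libraries, and the groups are named by their labels. Gene counts cover the whole gene, so a loss of the floxed part alone was not examined. The cortical genes Pax6 (171 to 245 CPM) and Emx1 (68.8 to 136 CPM) were detected in each of the 6 libraries. The labels do not say which embryos shared a litter, and p-values measure the spread between these libraries.

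Both hypoxia-linked isoforms had about 3 times the level of the controls in the libraries labelled Foxp1cKO, while each of the 7 measured constitutive subunits had a lower mean there. None of the 9 genes passed the main test, edgeR's quasi-likelihood test with an adjusted p-value under 0.05 over all genes. By that test 0.152% of all genes were called higher in the libraries labelled Foxp1cKO, and 0.0% were called lower. At an unadjusted p under 0.05, 2 of the 9 were higher and 4 were lower, against 6.53% and 6.5% of all genes. DESeq2, run on the same counts, called Cox4i2 and Ndufa4l2 higher and Cox5a lower, against 1.82% of all genes called higher and 1.15% called lower. Limma on the variance-stabilized values called Ndufa4l2 alone, against 0.158% of all genes called in either direction.

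Cox4i2 (ENSMUSG00000009876.13, chromosome 2, 152754173 to 152765037, plus strand, GRCm38) was at 0.63, 0.56, 0.85 and 0.76 CPM in controls 1 to 4 and at 2.21 and 2.15 CPM in Foxp1cKO replicates 1 and 2. Both labelled libraries lay above all controls and close to each other. The log2 fold change was 1.63 (SE 0.241, 3.09-fold), with an adjusted p of 0.0817 by edgeR and 2.18e-05 by DESeq2. Over the alternatives in processing, the adjusted p ran from 2.18e-05 to 0.455. These levels rested on 35 to 62 counts per control library and on 111 and 163 counts in the libraries labelled Foxp1cKO.

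Ndufa4l2 (ENSMUSG00000040280.10, chromosome 10, 127514967 to 127517154, plus strand) was measured at 1.42, 1.42, 0.97 and 1.68 CPM in controls 1 to 4 and at 4.39 and 4.86 CPM in Foxp1cKO replicates 1 and 2. Again the groups did not overlap, and control 3, the Foxp1 fl/fl control, was the lowest library. The log2 fold change was 1.75 (SE 0.242, 3.37-fold), with an adjusted p of 0.0747 by edgeR and 3.44e-08 by DESeq2. On the variance-stabilized values, which compress low counts, limma gave a difference of 0.91 (adjusted p = 0.0447), and for Cox4i2 one of 0.64 (adjusted p = 0.0588). Over the alternatives the adjusted p of Ndufa4l2 ran from 3.44e-08 to 0.451. Without control replicate 4 the gene passed edgeR's threshold (adjusted p = 0.0444). Of its exonic bases, 2.92% overlap Shmt2 on the other strand, and the strand setting of the authors' counting is not given in the sources used here. Among all genes, 11.5% had both labelled libraries above all controls, as these isoforms had.

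**Figure D1:**
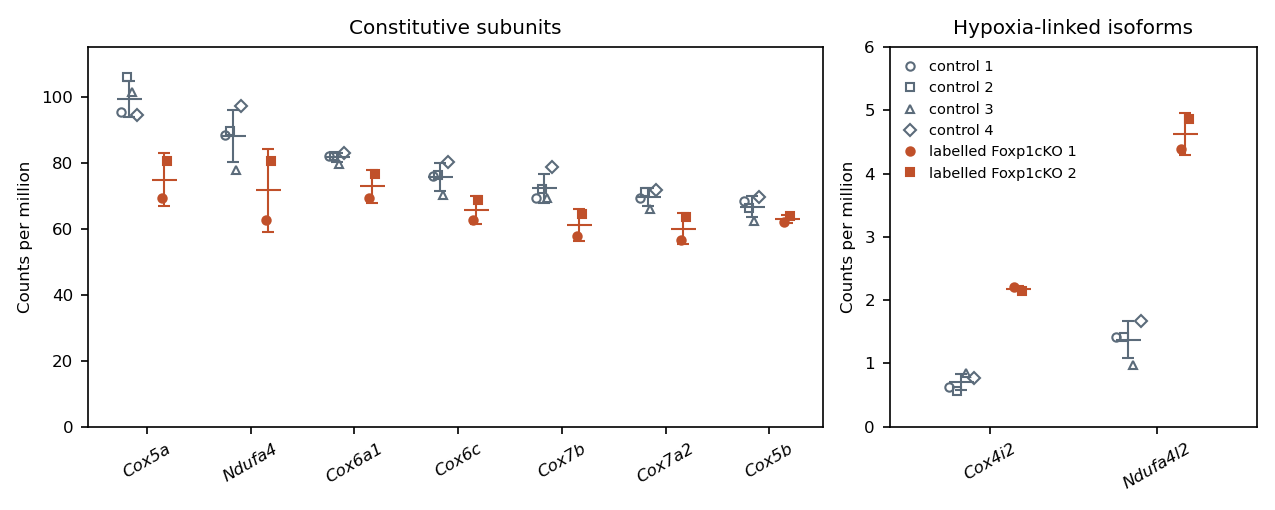
Levels of the 9 measured complex IV genes in CPM in each library, with constitutive subunits on the left and hypoxia-linked isoforms on the right on separate linear axes that start at 0. Each point is a library, and the horizontal mark and bar are the group mean and SD (4 control libraries, 2 labelled Foxp1cKO). Cox4i2 and Ndufa4l2 lay above all controls in both labelled libraries, and 5 of 7 constitutive subunits lay below all controls.

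The constitutive subunits differed little in comparison, and in 1 direction. All 7 had a negative log2 fold change, from -0.41 for Cox5a to -0.08 for Cox5b, with a median of -0.21, while the median over all genes was -0.0044 and 50.7% of all genes were lower at any size. In 5 of the 7 (Cox5a, Cox6a1, Cox6c, Cox7a2 and Cox7b) both labelled libraries lay below all controls, as did 13.1% of all genes. The 7 subunits came to a summed 526 to 575 CPM in the controls and to 440 and 498 CPM in Foxp1cKO replicates 1 and 2. Foxp1cKO replicate 1 was thus the lowest library for the sum, and it was also the lowest for each of the 7 genes and the shallowest of the 6 libraries. The part of depth in this was not tested. Without Foxp1cKO replicate 1 the median was -0.13, and without Foxp1cKO replicate 2 it was -0.31. In bulk tissue, fewer cells of a type and less RNA per cell cannot be told apart.

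Cox5a and the zinc-binding subunit Cox5b lay at opposite ends of the constitutive range. Cox5a (chromosome 9, 57521274 to 57532426, plus strand) was at 95.3, 105.8, 101.4 and 94.5 CPM in controls 1 to 4 and at 69.2 and 80.5 CPM in Foxp1cKO replicates 1 and 2. Its groups were separated by a gap wider than the range of the controls. The log2 fold change was -0.41 (SE 0.093), with an adjusted p of 0.242 by edgeR and 0.0201 by DESeq2, and 0.0201 to 0.885 over the alternatives. A share of 12.8% of its exonic bases overlaps Gm26631 on the other strand, and 13.6% of its 100-base stretches also occur in that transcript. Its counts are thus less certain than those of Cox7a2, Cox7b, Ndufa4, Cox4i2 and Ndufa4l2, for which the share of such stretches was 0%. That share was 8.09% for Cox5b, 7.2% for Cox6c and 1.48% for Cox6a1. Cox5b was at 68.5, 66.3, 62.2 and 69.6 CPM in controls 1 to 4 and at 62.1 and 63.7 CPM in the labelled libraries (log2 fold change -0.08, SE 0.077, adjusted p = 0.671, edgeR). The Cox5b groups overlapped.

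Ndufa4, the constitutive relative of Ndufa4l2 and a subunit once assigned to complex I, was at 88.3, 89.5, 77.8 and 97.0 CPM in controls 1 to 4 and at 62.6 and 80.5 CPM in Foxp1cKO replicates 1 and 2. The groups overlapped, since Foxp1cKO replicate 2 lay above control 3. Its log2 fold change of -0.30 (SE 0.130, adjusted p = 0.392, edgeR) had the largest SE among the constitutive subunits, and was -0.13 without Foxp1cKO replicate 1 and -0.51 without Foxp1cKO replicate 2.

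The remaining small subunits sit at the rim of the enzyme and are thought to tune its assembly and stability. Cox6a1 was at 79.5 to 82.8 CPM in the controls and at 69.3 and 76.4 CPM in the labelled libraries (log2 fold change -0.16, SE 0.073). Cox6c was at 70.1 to 80.3 CPM in the controls and at 62.7 and 68.7 CPM in the labelled libraries (log2 fold change -0.20, SE 0.085). For Cox7a2 the controls ranged from 66.0 to 71.8 CPM and the labelled libraries were at 56.6 and 63.4 CPM (log2 fold change -0.21, SE 0.082). Cox7b, an X-linked subunit, ranged from 69.2 to 78.6 CPM in the controls and was at 57.7 and 64.5 CPM in the labelled libraries (log2 fold change -0.24, SE 0.090). In these 4 subunits the groups were close but did not overlap, and the edgeR adjusted p ran from 0.346 for Cox7b to 0.407 for Cox6a1. Of the exonic bases of Cox6c, 7.01% overlap Vps13b on the other strand.

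Each constitutive subunit was also set against the mean of the other measured constitutive subunits in the same library, which removes their common shift. Relative to the others, Cox5a was lower by 0.21 log2 units in the labelled libraries and Cox5b was higher by 0.17. On this scale the groups did not overlap for these and for Cox6a1 and Cox7a2, and overlapped for Cox6c, Cox7b and Ndufa4. The remaining 5 constitutive subunits differed by -0.09 (Ndufa4) to 0.08 (Cox6a1) log2 units. These differences balance out over the 7 genes by construction, so they restate the log2 fold changes above. Cox5b, higher on this scale, had a log2 fold change of -0.08. The share of all genes without overlap was not computed on this scale.

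**Figure D2:**
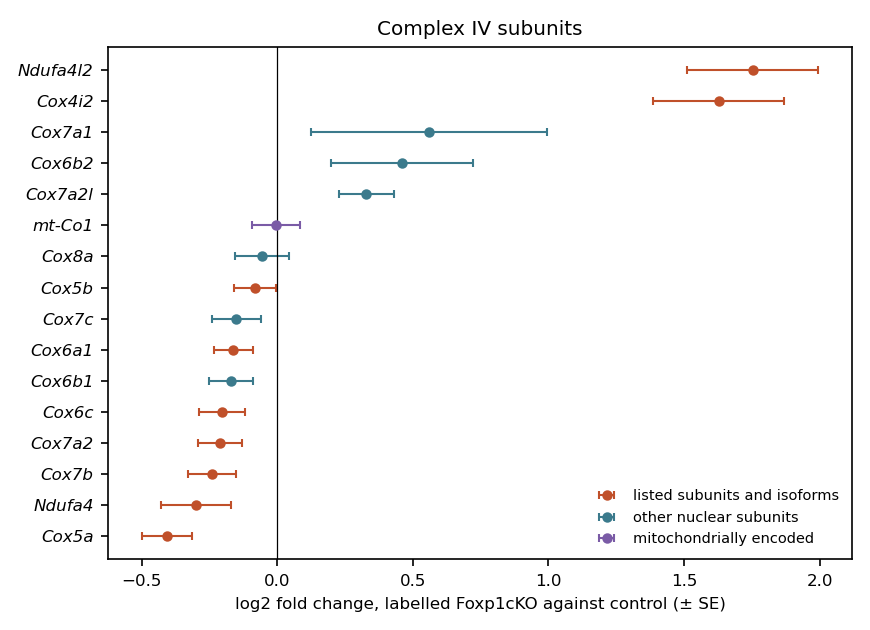
Log2 fold change with its SE (bars) from the edgeR fit over all genes, libraries labelled Foxp1cKO against controls, for the complex IV subunits, without mt-Co2 and mt-Co3, whose counts are uncertain. Ndufa4l2 (1.75) and Cox4i2 (1.63) stood apart at the high end, and Cox5a (-0.41) was at the low end.

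In the ratio of an isoform to its relative within a library, depth cancels out. In bulk tissue this ratio cannot tell isoform use within cells from a change in the mix of cells. Ndufa4l2 per length was 2.04%, 2.01%, 1.59% and 2.19% of Ndufa4 in controls 1 to 4 and 8.87% and 7.63% in Foxp1cKO replicates 1 and 2. Both labelled libraries lay above all controls, and in each the hypoxia-linked isoform was still the minor one. The mean log2 ratio was -5.69 ± 0.20 (SD, n = 4) in the controls and -3.60 ± 0.15 (SD, n = 2) in the labelled libraries, a difference of 2.08, or 4.23-fold, with an exact two-sided permutation p of 0.133, the smallest that 4 against 2 libraries can give. The matching ratio of Cox4i2 to Cox4i1 was not analysed here. Set instead against the mean log2 CPM of the 7 constitutive subunits, a comparison chosen after seeing the data, Cox4i2 differed by 1.84 log2 units (3.59-fold) and Ndufa4l2 by 1.99 (3.97-fold), both with an exact permutation p of 0.133 and without overlap of the groups.

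Per kilobase of exon in the controls, Cox6b1 (153 CPM per kb), Cox8a (136) and Cox6a1 (116) were the highest of the 15 nuclear complex IV subunit genes measured. The control ranges of Cox6b1 and Cox8a overlapped, whereas Cox8a and Cox6a1 were separated from the gene next below them. Cox7a2 (73.7 CPM per kb), Ndufa4 (63.8), Cox7a2l (62.6) and Cox7b (59.5) formed a run of overlapping neighbours, followed by Cox7c (50.4), Cox5a (47.2) and Cox5b (42.0). Cox7c and Cox5a overlapped, while Cox7b was separated from Cox7c, Cox5a from Cox5b, Cox5b from Cox6c (21.2), and Cox6c from all below it. Cox6b2 (1.39 CPM per kb), Ndufa4l2 (1.25), Cox4i2 (0.89) and Cox7a1 (0.87) were the lowest, and each overlapped its neighbour. With the length of the longest transcript in place of all exons, Ndufa4 moved from rank 5 to 9 and Cox5b from 10 to 7, while Ndufa4l2 stayed at rank 13.

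Promoter sequence is shown for Cox5a, which had the largest negative change of the constitutive subunits, and for Cox6a1, the only one of 6 available promoters to hold the letters searched for the nuclear respiratory factor NRF1 and for ETS factors, both known regulators of nuclear respiratory genes. The sequences are from RefSeq, assembly GRCm38.p6, the 250 bases before the annotated start, written 5′ to 3′ on the strand of the gene. Capitals mark matches, on either strand, to ACGTG and GCGTG (forms of the HIF core), CGCATGCG (NRF1) and CCGGAAG (ETS). The windows are chr9:57520982-57521231 on the plus strand for Cox5a and chr5:115348959-115349208 on the minus strand for Cox6a1.
Cox5a: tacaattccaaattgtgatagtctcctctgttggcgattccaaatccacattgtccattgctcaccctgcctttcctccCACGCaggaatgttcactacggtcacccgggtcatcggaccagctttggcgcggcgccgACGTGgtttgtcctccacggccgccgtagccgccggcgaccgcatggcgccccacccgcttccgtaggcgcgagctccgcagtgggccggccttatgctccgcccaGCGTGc
Cox6a1: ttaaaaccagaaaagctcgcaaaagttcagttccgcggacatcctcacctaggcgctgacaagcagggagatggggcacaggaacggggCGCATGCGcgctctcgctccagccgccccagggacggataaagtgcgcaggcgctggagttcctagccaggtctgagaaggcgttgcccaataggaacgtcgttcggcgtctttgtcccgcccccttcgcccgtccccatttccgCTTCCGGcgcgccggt
ACGTG was found in 16.6% and GCGTG in 28.2% of 32851 promoter windows of this length, CGCATGCG in 1.55% and CCGGAAG in 6.91%. Of the 6 promoters (Cox5a, Cox5b, Cox6a1, Cox7a2, Cox7b and Ndufa4), ACGTG was in 1, that of Cox5a, and GCGTG was in 3, those of Cox5a, Cox5b and Cox7a2. A match of letters is a description and no binding was measured.

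Other nuclear subunits of the enzyme went both ways. Of 10 listed genes, 6 were measured, 3 with a higher and 3 with a lower mean, and none passed edgeR's test, DESeq2 or limma. One was higher at an unadjusted p under 0.05. This was Cox7a2l, a gene linked to supercomplexes, in which complex IV is joined with complex III. Supercomplexes were not measured here. Cox7a2l was at 93.4, 85.8, 90.3 and 100.8 CPM in controls 1 to 4 and at 105.5 and 126.9 CPM in Foxp1cKO replicates 1 and 2. The groups did not overlap (log2 fold change 0.33, SE 0.102, adjusted p = 0.292, edgeR), with the opposite sign to its relative Cox7a2, and 9.9% of its 100-base stretches also occur in Gm6969. Cox6b1 (-0.17), Cox7c (-0.15) and Cox8a (-0.06) had negative log2 fold changes of the same order as the constitutive subunits above. Of the 100-base stretches of Cox7c, 19.7% also occur in other annotated genes. The low-level tissue isoforms Cox6b2, known from testis, and Cox7a1, known from heart and muscle, had log2 fold changes of 0.46 (SE 0.262) and 0.56 (SE 0.435), with overlapping groups. Cox6a2, Cox7b2, Cox8b and Cox8c were not analysed here.

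In the catalytic core, mt-Co1 was at 5195 to 5764 CPM in the controls and at 5551 and 5418 CPM in the labelled libraries, with overlapping groups (log2 fold change -0.0047, SE 0.090, adjusted p = 0.988, edgeR). At this level it was far above each nuclear subunit, although 30.8% of its 100-base stretches also occur in nuclear copies. The counts of mt-Co2 (-1.01, SE 0.465) and mt-Co3 (-0.83, SE 0.438) are uncertain, since 99.5% and 99.9% of their 100-base stretches occur in other annotated genes, and both were below 1 CPM in each library.

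Assembly factors build the enzyme by inserting copper and heme and by handling its subunits. Of 28 listed, 25 were measured, 18 lower and 7 higher, with a median log2 fold change of -0.11, while 50.7% of all genes were lower. Both labelled libraries lay below all controls for 10 of the 25 and above all controls for 3, against 13.1% and 11.5% of all genes. None passed edgeR's or limma's test, 2 were higher and 2 lower at an unadjusted p under 0.05, a share near the 6.53% and 6.5% of all genes, and DESeq2 called 1 higher, beside 1.82% of all genes. That gene was Higd1a, a hypoxia-induced protein that binds complex IV and raises its activity. Higd1a was at 27.7, 27.9, 26.6 and 33.4 CPM in controls 1 to 4 and at 50.6 and 61.7 CPM in Foxp1cKO replicates 1 and 2. The groups were well apart (log2 fold change 0.96, SE 0.123, adjusted p = 0.0645 by edgeR and 2.61e-08 by DESeq2). Coa4 was next at 0.54 (SE 0.172, adjusted p = 0.294, edgeR), and the lowest were Cmc1 (-0.37) and Taco1 (-0.32), the latter an activator of mt-Co1 translation.

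Genes that link hypoxia to mitochondria included 2 calls by edgeR, Bnip3 and Pdk1. Of 13 listed genes, 12 were measured, 9 with a higher and 3 with a lower mean, with a median of 0.12. The 2 calls by edgeR stand beside 0.152% of all genes called higher, and limma called 2 as well. DESeq2 called 4 higher, beside 1.82% of all genes, which were Bnip3, Pdk1, Higd1a and Bnip3l. At an unadjusted p under 0.05, 4 were higher and 1 was lower, against 6.53% and 6.5% of all genes. Bnip3, a receptor for the removal of mitochondria by autophagy, was at 20.2 to 29.9 CPM in the controls and at 123.5 and 151.4 CPM in the labelled libraries (log2 fold change 2.53, SE 0.162, adjusted p = 0.0084, edgeR). Pdk1, a kinase that keeps pyruvate out of the citric acid cycle, rose by 2.16 (SE 0.206, adjusted p = 0.0178, edgeR). Bnip3l, a relative of Bnip3, had a log2 fold change of 0.53 (SE 0.074), with an adjusted p of 0.0747 by edgeR and 1.37e-07 by DESeq2. The lowest were Iscu (-0.37), a scaffold for iron-sulfur clusters, and Chchd4 (-0.23), part of the import of small proteins into mitochondria. Chosen after their values were seen, for their known link to Cox4 isoform exchange, Lonp1, a protease that degrades Cox4i1, was at 74.9 to 91.5 CPM in the controls and at 92.9 and 87.9 CPM in the labelled libraries (0.09, SE 0.095). Rbpj and Cxxc5, both known regulators of Cox4i2 transcription, had log2 fold changes of 0.03 (SE 0.075) and 0.28 (SE 0.134).

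Most subunits of the other respiratory complexes also had lower means in the libraries labelled Foxp1cKO. Complex III subunits were lower in 9 of 9 (median -0.20), complex V subunits in 16 of 17 (median -0.20) and complex I subunits in 31 of 36 (median -0.15), and neither edgeR nor limma called any of them lower. Unadjusted p under 0.05 was reached by 4 lower complex III genes, 11 lower complex V genes and 11 lower and 1 higher complex I genes, beside 6.5% of all genes lower and 6.53% higher. DESeq2 called Cyc1 in complex III and Atp5g3, Atp5j and Atp5k in complex V lower, beside 1.15% of all genes. It called Ndufv3 in complex I higher, beside 1.82% of all genes. At any size 50.7% of all genes were lower. Below all controls in both labelled libraries were 4 complex III, 12 complex V and 15 complex I genes, against 13.1% of all genes. Above all controls in both were 2 complex I genes and none of complexes III and V, against 11.5% of all genes. At the low end stood Uqcr10 (-0.34) and Uqcrq (-0.32) in complex III, Atp5k (-0.48) and Atp5e (-0.46) in complex V, and Ndufb9 (-0.46) and Ndufc1 (-0.41) in complex I. Ndufv3 (0.33), Ndufb4 (0.16) and Atp5d (0.10) were at the high end. No difference between complexes was tested.

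**Figure D3:**
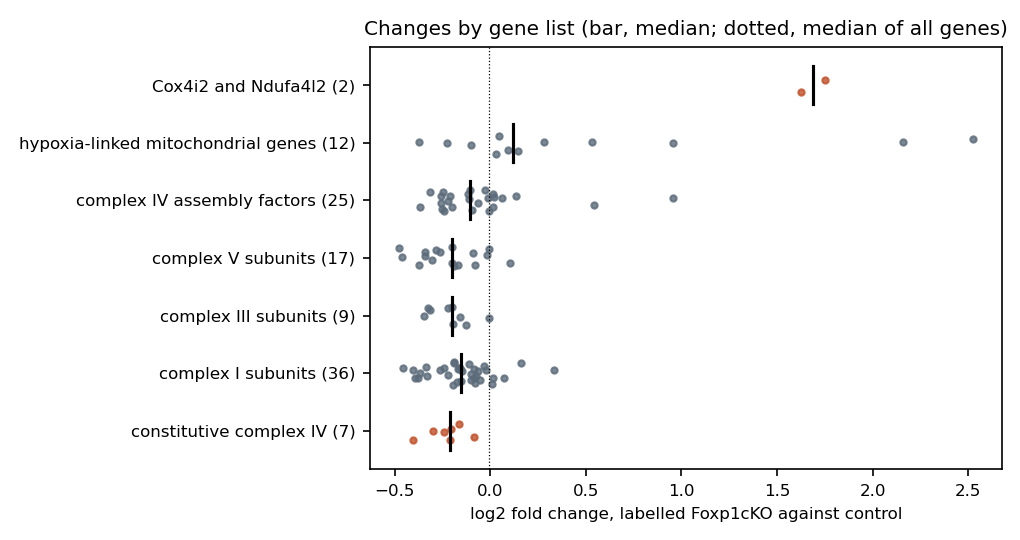
Log2 fold change of each measured gene (points, with vertical scatter for display only) by gene list, libraries labelled Foxp1cKO against controls, with the number of genes in parentheses, list medians as bars and the median of all genes (-0.0044) dotted. The medians of the constitutive complex IV genes (-0.21) and of complexes III (-0.20), V (-0.20) and I (-0.15) were below it, and Bnip3 and Pdk1 were the highest points.

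Because Cox4i2 and Ndufa4l2 are also known from pericytes, markers of these cells were set beside them. Of 13 measured pericyte and mural markers, 12 had a higher mean in the libraries labelled Foxp1cKO (median log2 fold change 0.48), none was called by edgeR or limma, 4 were higher at an unadjusted p under 0.05 (6.53% of all genes), DESeq2 called 1 higher (1.82% of all genes), 5 had both labelled libraries above all controls (11.5% of all genes), and none was at 0 in any library. Their summed level was 248 to 328 CPM in the controls and 366 and 391 CPM in the labelled libraries, without overlap. Notch3, at 119.6 to 159.6 CPM in the controls and 176.9 and 167.1 CPM in the labelled libraries, was the largest part of that sum. Without it the summed levels overlapped, with control 1 above Foxp1cKO replicate 1. On the mean log2 CPM of the 13 markers the groups overlapped, with control 1 at 3.278 and Foxp1cKO replicate 1 at 3.276. Rgs5 (0.61, SE 0.106, the gene called by DESeq2), Cspg4 (0.56), Abcc9 (0.48), Pdgfrb (0.42), Kcnj8 (0.41) and Notch3 (0.35) were among the listed markers with higher means. Acta2 (2.01, SE 0.992), Des (0.95), Tagln (0.89), Vtn (0.57), Mcam (0.16) and Cd248 (0.09) were also higher, and Anpep (-0.10) was not. The log2 fold changes of the isoforms exceeded those of the 13 markers except Acta2, which had the largest SE.

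Set against the mean log2 CPM of the 13 pericyte and mural markers, a comparison chosen after seeing the data, Ndufa4l2 differed by 1.07 log2 units (2.10-fold), with both labelled libraries above all controls (exact permutation p = 0.133). Cox4i2 differed by 0.93 (1.90-fold) on the same scale, but Foxp1cKO replicate 2 lay below control 3 (exact permutation p = 0.267). Against 12 endothelial markers, likewise chosen after seeing the data, the isoforms differed by 1.39 (Cox4i2) and 1.54 (Ndufa4l2) log2 units, both without overlap. The part of pericyte number in the isoforms' levels was not tested, and these ratios do not measure it.

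**Figure D4:**
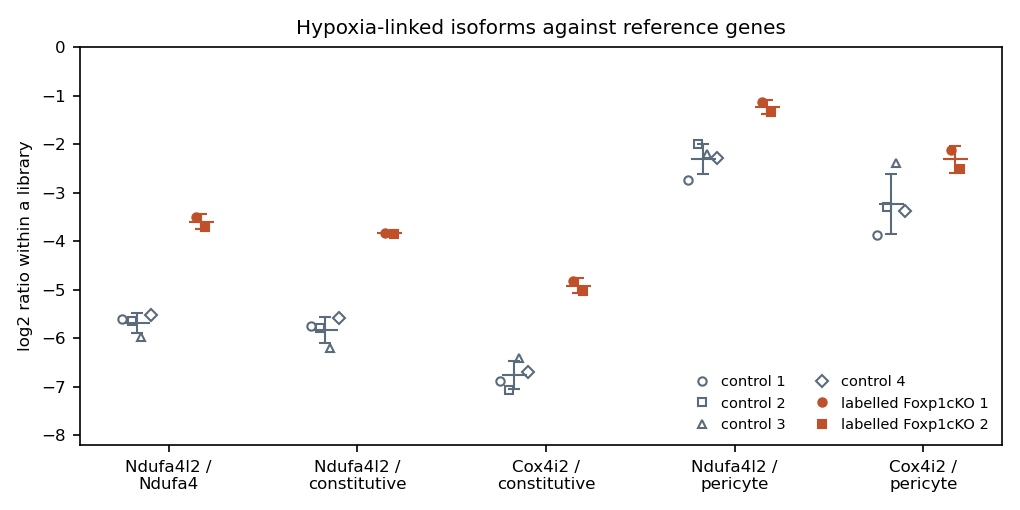
Log2 ratio within each library of Ndufa4l2 to Ndufa4 (per length), and of each hypoxia-linked isoform to the mean of the 7 constitutive subunits or of the 13 pericyte and mural markers (log2 CPM). Points are libraries and bars are group mean and SD (4 control, 2 labelled Foxp1cKO). The groups overlapped only for Cox4i2 against the pericyte markers.

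The 12 endothelial markers summed to 167 to 251 CPM in the controls and to 226 and 281 CPM in the labelled libraries, with 8 of the 12 higher and 4 lower (median log2 fold change 0.07). Tek was the lowest (-0.35), and Kdr, Pecam1 and Cdh5 had log2 fold changes of 0.18, 0.65 and 0.0035. The edgeR test called 1 of the 12 higher, beside 0.152% of all genes. That gene was Flt1, a receptor for the angiogenic factor VEGF (1.64, adjusted p = 0.0179, edgeR). DESeq2 called 2 of the 12 higher, Flt1 and Pecam1 (adjusted p = 0.0281 for Pecam1), beside 1.82% of all genes. Red cell markers summed to 1100 to 3544 CPM in the controls and to 3849 and 4143 CPM in the labelled libraries, led by Hbb-y, Hba-x and Hba-a1, with control 4 close to the labelled libraries. Neuron markers, led by Dcx, Map2 and Neurod6, summed to 2835 to 5158 CPM in the controls and to 3747 and 3834 CPM in the labelled libraries. Of 11 measured radial glia markers, 8 had a higher and 3 a lower mean (median log2 fold change 0.10), from -0.43 for Fabp7 to 0.80 for Hmga2, with Vim at 0.10 and Nes at -0.24, and edgeR called none of these 4. No endothelial, red cell or neuron marker was at 0 in a library. The part of these cells in the complex IV values was not tested.

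The genes with the level pattern most like each isoform were sought by Pearson correlation of log2 CPM over the 6 libraries among 14359 genes with a mean of at least 50 counts. For Ndufa4l2 they were Pdk1 (r = 0.995), Prok1 (0.994), Pfkl (0.994), Gm28438 (0.992) and Flt1 (0.992). For Cox4i2 they were Gm19705 (r = 0.996), Pan3 (0.995), Plaur (0.993), Bmt2 (0.992) and Pde7a (0.992). The isoforms correlated with each other at r = 0.906, which placed Ndufa4l2 at rank 352 for Cox4i2 and Cox4i2 at rank 287 for Ndufa4l2. All of these values share the same 6 libraries and the same split into groups, and 383 genes for Cox4i2 and 323 for Ndufa4l2 had r above 0.9. By rank, 61 and 82 genes tied at a Spearman correlation of 1, and the isoforms stood at 0.6 to each other.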

How the data were processed

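RNA of lateral cortex from 6 embryos at E12.5 (4 controls, 2 labelled Foxp1cKO) was sequenced from stranded libraries. Alignment to mm10 (STAR), gene counting (HTSeq 0.9.1, union setting) and a filter against weakly counted genes were done by the authors. The deposited counts of 17068 genes are whole and not normalized. The authors also deposited variance-stabilized values on a log2 scale, used here only with limma. Tool names and versions are from the submitters' processing notes and the study's methods. The authors' model held litter, which the labels do not give, so group alone was modelled.

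Groups came from the labels. Counts were tested in R 4.3.3 with edgeR 4.0.16 (TMM, quasi-likelihood test, Benjamini-Hochberg over all genes, adjusted p under 0.05). In simulated data of this design, edgeR recovered 65 of 100 genes changed by a log2 of 1 and 92 of 100 changed by 2. The changed genes were drawn from those with a mean of at least 50 counts, and no litter or other shared variation was simulated. DESeq2 1.42.0, limma 3.58.1, other size factors, a filter at a mean of 1 CPM, each library left out and a replicate block were alternatives. Ratios used counts plus 0.5 per kilobase, or differences of log2 CPM (prior count 2), with exact two-sided permutation tests. Symbols, positions and lengths came from GENCODE M21, in which 17047 identifiers were found. Floors cover counting error only.

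The members and gene lists were chosen with earlier results of these data known. Named were all members and complex IV subunits, the pericyte markers, the 3 highest genes of the endothelial, red cell, neuron and radial glia lists, the 2 largest changes in each direction and each edgeR call of the other lists, Foxp1, and the 5 genes most like each isoform. Bnip3l, Cyc1, Atp5g3, Atp5j, Hmga2 and Tek were named after their values were seen. Some marker genes and results that need them are not reported here.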

Additional observations from a re-analysis of the deposited data

Results flagged for a closer look

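Among 74 values tested in the controls, 4 had 1 library far from the other 3, and chance gives about 1 in 20. Control 4 was high for Hba-x (559.0 CPM) and Hbb-y (2340 CPM), embryonic globins, and for Higd1a against the constitutive complex IV subunits (-1.29 on the log2 scale). Control 1 was high for Kdr (69.5 CPM), the main VEGF receptor of endothelial cells. Control 4 was also the library whose removal brought Ndufa4l2 past the threshold. No cause was tested.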

How the results depend on the processing

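Each measured member kept its direction under each alternative run. DESeq2 called 3 members (Cox4i2, Ndufa4l2, Cox5a) and 507 of all genes, and limma called 1 member (Ndufa4l2), against 0 members and 26 genes by edgeR. With 1 library left out, 0 to 1 members and 2 to 96 genes passed, with 6 genes without control 1, 2 without control 2, 96 without control 4, 9 without Foxp1cKO replicate 1 and 3 without Foxp1cKO replicate 2, where the lone labelled library was assumed to vary like the controls. Over the same refits the median log2 fold change ran from -0.31 to -0.13 for the constitutive subunits, -0.17 to -0.073 for the assembly factors, -0.25 to -0.088 for complex I, -0.36 to -0.16 for complex III and -0.32 to -0.16 for complex V. For the mitochondrially encoded subunits it ran from -0.98 to -0.47, and was -0.18 by limma and 0.0025 with the filter at 1 CPM, which left mt-Co1 alone. The median of the other nuclear subunits, 0.14, was -0.05 with that filter, which removes Cox7a1, and -0.02 without Foxp1cKO replicate 2.

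With a replicate block of the numbers in the labels, 0 genes and 0 members passed (3027 genes at an unadjusted p under 0.05). Deviations of same-numbered libraries correlated at -0.198 and 0.0157. With 2 labelled libraries, their deviations from the group mean mirror each other, so this check cannot decide whether the numbers pair the libraries. The ratio of Cox4i2 to Cox4i1 was not computed. Cox4i2 and Ndufa4l2 rested on low counts, and each comparison on 2 labelled libraries.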
